A study of Arabidopsis thaliana with 12 samples.

Results

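Gene expression was compared directly between Arabidopsis thaliana seedlings of genotype h3.3ko;HTR5 K4A and seedlings of genotype sdg2, both of which are meant to disturb methylation of lysine 4 of histone H3 (H3K4). The comparison used the 6 libraries of these groups, 3 for each, out of 12 libraries in 4 groups of 3. Of 27655 genes in the deposited table, 20152 reached 1 TPM in 3 or more of the 6 libraries and were tested. TPM, transcripts per 1000000, is a level scaled for gene length and for the total of the library.

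The mutant group called K4A below is labelled h3.3ko;HTR5 K4A, a knockout of the replacement histone H3.3 that carries the H3.3 gene HTR5 with its lysine 4 changed to alanine. The group called sdg2 is labelled with that mutation alone and carries neither the knockout nor an added HTR5. The other 6 libraries serve here as context: 3 are labelled h3.3ko;HTR5, the same knockout carrying unchanged HTR5 (called the HTR5 group), and 3 are wild type Col (called Col). All plants were seedlings 3 weeks old, grown at 22 °C under days of 16 h light and 8 h darkness, per the labels' protocols. The knockout and the HTR5 gene it carries are shared by K4A and the HTR5 group and absent from sdg2 and Col, so in K4A against sdg2 they cannot be told apart from the change of lysine 4. The labels give neither the promoter of the HTR5 gene, nor the allele of sdg2, nor the number of lines, nor the hour of harvest. They also do not say whether the 3 libraries of a group came from separate plants or cultures, so p-values here measure the spread between these libraries, which may be technical.

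H3K4 methylation marks the starts of transcribed genes. It is written by SET-domain enzymes, of which SDG2 is the main one for the trimethyl form in Arabidopsis, and the ATX proteins and ATXR7 are others, working with the COMPASS subunits. H3.3 is the histone H3 variant laid down outside DNA replication, mostly over transcribed genes, whereas H3.1 is laid down with replication. Losing a writer leaves the lysine in place, on H3.1 and H3.3 alike, whereas an alanine at this position of H3.3 cannot be methylated by any enzyme.

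Depth was 21521205 to 27651680 reads in the K4A libraries and 20727284 to 30368852 in the sdg2 libraries. The libraries of the context groups were shallower, with 13734149 to 14544007 reads in the HTR5 group and 13780019 to 14184051 in Col. Chloroplast-encoded genes held 0.0083 to 0.0108% of reads in the K4A and sdg2 libraries together, against 0.0459 to 0.116% in those of the HTR5 group and Col. The 6 libraries compared here were thus close to each other in both measures, and a value set beside the HTR5 group or Col spans this gap. The SDG2 transcript was not low in the libraries labelled sdg2, as given below with the other targeted genes.

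Most genes differed between K4A and sdg2, and most differences were small. A gene was called at a limma adjusted p (Benjamini-Hochberg) under 0.05. Differences are of log2(TPM + 1), K4A minus sdg2, given ± SE, so that a negative value is lower in K4A and changes of genes near 0 are understated, and mean levels are given ± SD over the 3 libraries of a group. Of the 20152 genes, 12594 (62.5%) were called, 4993 (24.8%) higher in K4A and 7601 (37.7%) lower. Of the called genes 10438, or 82.9%, differed by less than 2-fold. With 3 libraries against 3, the smallest p an exact permutation test of a single gene could give is 0.1, so the calls rest on limma's pooling of the spread over genes. At least 2-fold were 2156 genes (10.7%), of which 1028 (5.1%) were higher in K4A and 1128 (5.6%) lower. At the far end the lower side was longer: 163 genes were at least 4-fold higher in K4A and 271 at least 4-fold lower, and at 16-fold the counts were 2 and 47. The split by direction depends on scaling: 39.6% of called genes were higher in K4A on TPM as deposited, but 50.5% once libraries were rescaled by their median ratio (ratio scaling), 48.3% after quantile normalization (quantile scaling) and 50.3% in a voom fit of recovered reads. The median log2 difference over all tested genes was -0.08, with quartiles of -0.33 and 0.20. The libraries of the groups did not overlap for 13519 genes (67.1%). A gene under 1 TPM in every library of 1 group passed the filter through the other group alone, so its direction was fixed by the filter. In bulk seedlings, fewer cells of a type and less RNA per cell cannot be told apart.

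**Figure D1:**
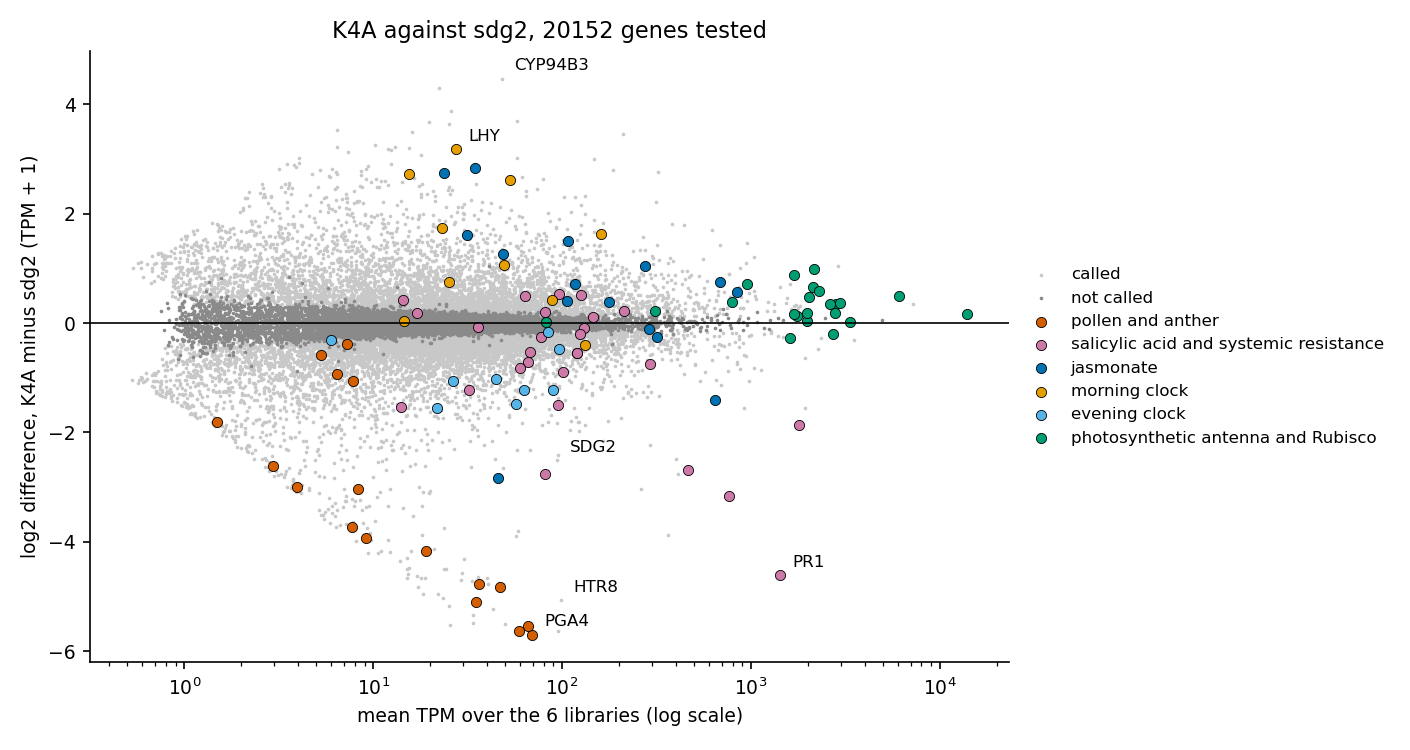
Each point is a tested gene, with its mean TPM over the 6 libraries on a log axis and its log2 difference, K4A minus sdg2, on the vertical axis; coloured points are genes of 6 lists. Pollen and anther genes lie lowest, down to -5.69, PR1 stands apart at -4.60, and morning clock and jasmonate genes lie among the higher points.

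The genes targeted in the labels are given first. HTR8, an H3.3 gene at chromosome 5, 3472405 to 3473570 (TAIR10.1, the RefSeq annotation, whose coordinates are used throughout), stood at 4.77, 5.64 and 3.99 TPM in K4A libraries, against 215, 189 and 172 TPM in sdg2 libraries. Its mean was 6.49 ± 3.22 TPM in the HTR5 group and 243 ± 8.58 TPM in Col, so that the groups labelled as the knockout were low and the other groups were high. The log2 difference was -5.06 ± 0.10 at a limma adjusted p of 4.21e-12. HTR4, another H3.3 gene, stood at 75.7, 71.9 and 86 TPM in K4A libraries, against 282, 279 and 258 TPM in sdg2 libraries, without overlap, and differed by -1.8 ± 0.065. Its mean was 169.6 ± 9.34 TPM in the HTR5 group, above K4A although labelled with the same knockout, and 316 ± 7.57 TPM in Col. The HTR5 locus stood at 321 ± 17.45 TPM in K4A and 433 ± 32.6 TPM in sdg2, and at 273 ± 23.5 TPM in the HTR5 group and 392 ± 2.48 TPM in Col. Reads of the HTR5 carried by the knockout may count at this locus, and the 3 genes are close copies, so that the counting may have split reads among them.

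SDG2 (AT4G15180, chromosome 4, 8651406 to 8662587) was high, not low, in the libraries labelled sdg2. It stood at 27.9, 29.2 and 25.4 TPM in K4A libraries, against 170.3, 139 and 174 TPM in sdg2 libraries, and its mean was 25.3 ± 4.83 TPM in the HTR5 group and 21.8 ± 3.1 TPM in Col. All 3 sdg2 libraries lay above all 9 others, and the log2 difference was -2.5 ± 0.083 at a limma adjusted p of 1.55e-10. A level per gene does not show whether the SDG2 RNA was whole, and says nothing of the protein. The labels do not give the allele, and its part in this level was not tested. Each direction below is therefore that of the libraries labelled sdg2.

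The 3 nearest genes on each side of SDG2 were examined too. AT4G15160, annotated as a lipid-transfer protein, was lower in K4A, at 10.8 ± 1.56 TPM in K4A and 29.2 ± 2.79 TPM in sdg2, and so were FH3, a formin that nucleates actin, at 1.53 ± 0.277 TPM in K4A and 3.15 ± 0.509 TPM in sdg2, and the transporter gene ABCG41, at 1.43 ± 0.127 TPM in K4A and 3.1 ± 0.589 TPM in sdg2. AT4G15150, for a glycine-rich protein, lay the other way, at 15.1 ± 1.82 TPM in K4A and 3.72 ± 0.476 TPM in sdg2. BAM5, a beta-amylase gene, differed by -0.12 ± 0.046 and AT4G15165 did not pass the test, with an adjusted p of 0.139 from limma. Beside the HTR5 locus, AT4G40042, annotated as a subunit of the microsomal signal peptidase and the next gene in the table, stood at 77.3 ± 5.96 TPM in K4A and 17 ± 1.5 TPM in sdg2, and at 57.1 ± 1.54 TPM in the HTR5 group and 19.5 ± 2.11 TPM in Col. It was thus high in both groups labelled as the knockout. The gene after it, AT4G40045, stood at 21.3 ± 1.73 TPM in K4A and 27.8 ± 0.883 TPM in sdg2, and at 124 ± 22.3 TPM in the HTR5 group. On the other side of HTR4, AT4G40020 was lower in K4A, at -1.17 ± 0.13, and AT4G40011 held at most 1 read in any of the 6 libraries and was not tested. AT4G40050 had 48.2 ± 3.74 TPM in K4A and 46.2 ± 0.705 TPM in sdg2 and did not pass the test, with a limma adjusted p of 0.441.

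**Figure D2:**
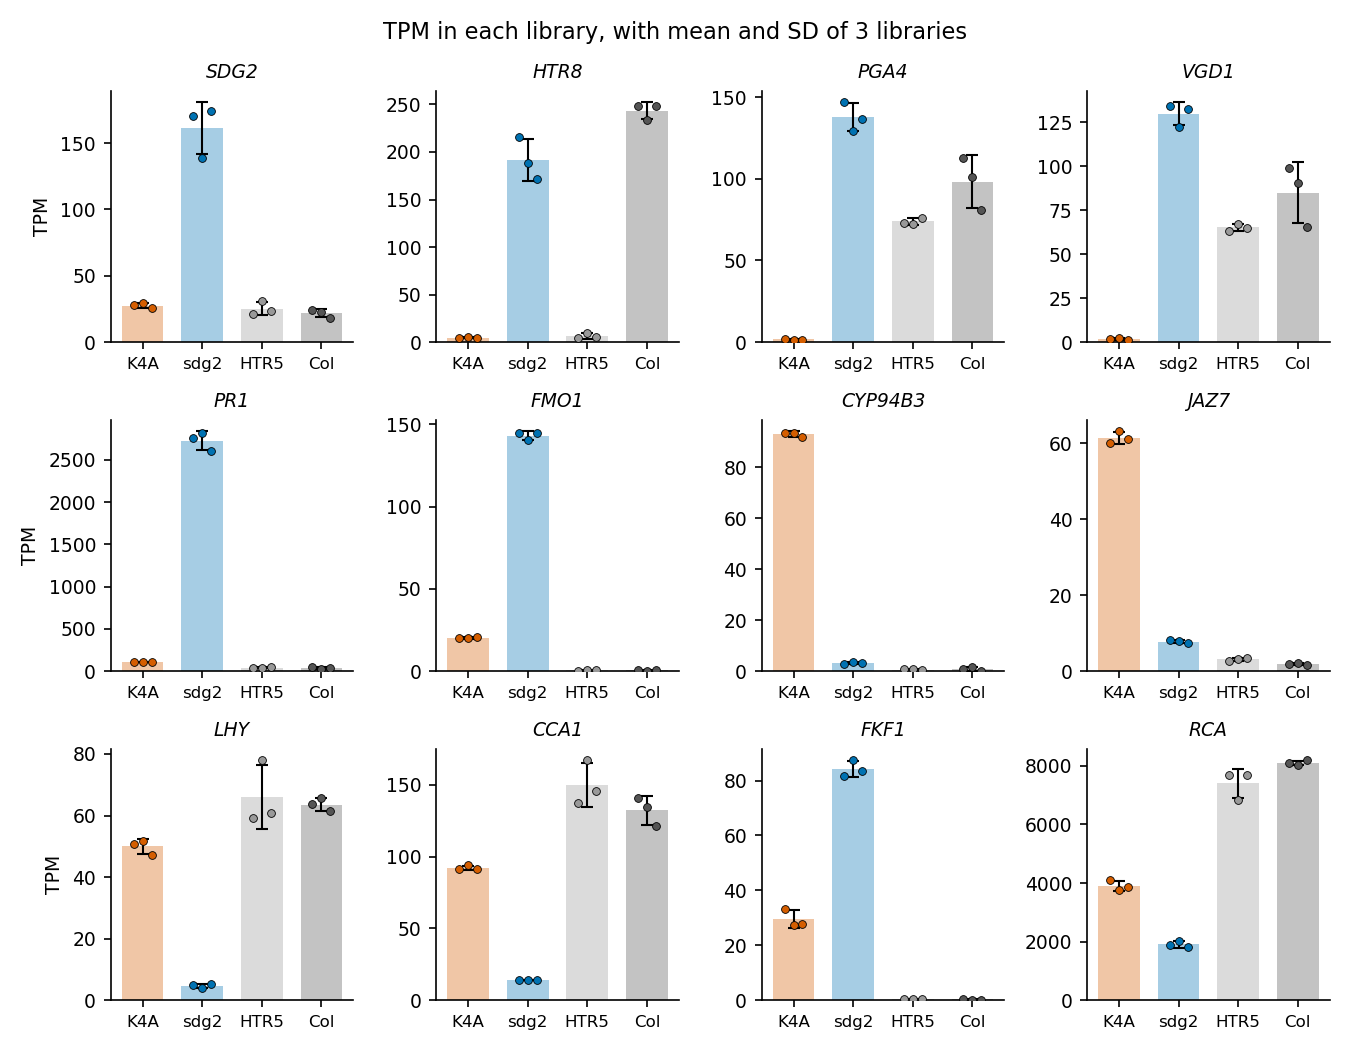
TPM of 12 genes in every library, with K4A, sdg2, HTR5 and Col from left to right; points are libraries, bars are means of 3 libraries and whiskers are SD. The K4A points lie near 0 for HTR8, PGA4 and VGD1, and the sdg2 points lie far above all others for SDG2 and PR1.

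Genes of pollen and its tube were among the largest falls in K4A. Of 19 listed pollen and anther genes 17 passed the filter on low values. Over all genes, 37.7% were called lower and 5.6% lower by at least 2-fold. The 17 pollen and anther genes were called lower in K4A, 14 of them by at least 2-fold, with a median log2 difference of -3.72 against -0.08 over all genes. Those under 1 TPM in K4A passed the filter through their sdg2 level and so had to differ, and the list was drawn up with earlier results of these data known. Ratio and quantile scaling also gave 17 lower. With the 4 genes at the floor in K4A (3 reads or fewer in every library) set to their bound, the median was -3.27. The members stand for pollen wall and cell wall enzymes, tube growth peptides with their receptors, and the tapetum, the anther layer that feeds the pollen.

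Promoters of 2 of these genes are shown because both hold a CArG box of the N10 type, the element bound by pollen MADS factors. The capitals mark the match, found on either strand in the 250 bases before the annotated start, read 5′ to 3′ on the gene's strand from the TAIR10.1 RefSeq genome. VGD1 is at chr2:19330198-19330447 (minus strand) and AT3G01270 at chr3:84902-85151 (minus strand).
VGD1: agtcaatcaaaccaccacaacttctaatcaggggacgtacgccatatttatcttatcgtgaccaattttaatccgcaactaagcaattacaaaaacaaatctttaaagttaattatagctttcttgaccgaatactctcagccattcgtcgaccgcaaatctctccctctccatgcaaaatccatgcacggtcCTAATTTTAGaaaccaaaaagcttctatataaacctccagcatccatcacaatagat
AT3G01270: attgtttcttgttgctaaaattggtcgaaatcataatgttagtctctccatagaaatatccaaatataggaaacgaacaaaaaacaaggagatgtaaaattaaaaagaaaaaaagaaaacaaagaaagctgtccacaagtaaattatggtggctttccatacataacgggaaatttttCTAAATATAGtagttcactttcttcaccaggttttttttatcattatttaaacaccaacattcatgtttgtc
The matches begin 57 and 72 bases before the start. Of 17 listed pollen and anther promoters 6 held such a match, 1 of them, in PGA4, overlapping the letters TATAAA of a TATA box. Among all 20052 promoters of tested genes 1.83% held a match, against 5.69% of the promoters of genes at least 2-fold lower in K4A and 2.05% of those at least 2-fold higher. Without matches that hold TATAAA or its complement these shares were 1.59%, 5.16% and 1.95%. A match describes the letters and shows no binding.

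Among the pectin enzymes, which loosen the wall of the growing tube, PGA4, a polygalacturonase, had the most negative log2(TPM + 1) difference. It stood at 2.22, 1.54 and 1.33 TPM in K4A libraries, against 147, 129.5 and 136 TPM in sdg2 libraries, and averaged 73.9 ± 2.01 TPM in the HTR5 group and 98.1 ± 16.2 TPM in Col. The K4A libraries lay below all 9 others, and the log2 difference was -5.69 ± 0.11 at a limma adjusted p of 3.93e-12. VGD1, a pectin methylesterase needed for tube growth in the style, stood at 2.05, 2.2 and 1.31 TPM in K4A libraries, against 134, 122 and 133 TPM in sdg2 libraries, again without overlap, with a difference of -5.53 ± 0.11. Its neighbour VGDH1, a related methylesterase, differed by -5.1 ± 0.11. AT3G01270, annotated as a pectate lyase, stood at 2.11, 1.15 and 1.03 TPM in K4A libraries, against 115, 116 and 119 TPM in sdg2 libraries, a difference of -5.62 ± 0.13. The pollen methylesterase PPME1 stood at 1.13 ± 0.384 TPM in K4A and 36.9 ± 1.83 TPM in sdg2, a difference of -4.17 ± 0.12. Close copies exist for several of these enzymes, and reads may have been split among them.

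Arabinogalactan proteins of the pollen wall followed the same pattern. AGP6 stood at 1.69 ± 0.737 TPM in K4A and 71.1 ± 8.45 TPM in sdg2. AGP11 stood at 2.29 ± 0.759 TPM in K4A and 91.1 ± 17.3 TPM in sdg2. Neither gene overlapped between the groups, as for 67.1% of all genes. AGP23 held at most 2 reads in any K4A library and averaged 15.3 ± 2.16 TPM in sdg2, at least 22.6-fold lower in K4A when set against 3 reads per library. It was higher still in the context groups, at 48.9 ± 13.5 TPM in the HTR5 group and 69.9 ± 12.1 TPM in Col. The tube peptides RALF4 and RALF19, which keep the tube wall intact by binding the receptors ANX1, ANX2, BUPS1 and BUPS2, were at the floor in K4A, against 7.77 ± 2.29 TPM and 18 ± 2.3 TPM in sdg2. Among their receptors, BUPS1 stood at 1.05 ± 0.273 TPM in K4A and 15.6 ± 1.64 TPM in sdg2 and ANX2 at 0.107 ± 0.0986 TPM in K4A and 5.81 ± 0.662 TPM in sdg2. ANX1 differed far less, by -0.39 ± 0.099, with 6.18 ± 0.558 TPM in K4A and 8.38 ± 0.441 TPM in sdg2.

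The listed tapetum genes differed less than most of the pollen genes, though more than ANX1. A9, a tapetal marker, stood at 5.1, 4.42 and 4.62 TPM in K4A libraries, against 11, 10.9 and 10.9 TPM in sdg2 libraries, and MS2, which makes precursors of the pollen wall, differed by -0.93 ± 0.099. The tapetal regulator AMS differed by -0.59 ± 0.15. All 3 were higher in the context groups, where A9 averaged 79.6 ± 30.2 TPM in the HTR5 group and 45.4 ± 13.3 TPM in Col. The sperm genes HTR10 and DUO1 did not pass the filter: HTR10 stood at 0.0278 ± 0.0481 TPM in K4A and 0.548 ± 0.16 TPM in sdg2 and DUO1 at 0.059 ± 0.0511 TPM in K4A and 0.233 ± 0.193 TPM in sdg2. Summed over the 19 genes, the level was 29.8 to 36.4 TPM in K4A libraries, against 704 to 787 TPM in sdg2 libraries, with 475 to 567 TPM in the HTR5 group and 476 to 685 TPM in Col. Whether K4A plants held less pollen, or pollen with less of these RNAs, was not tested.

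Genes at the floor in K4A were then counted over the whole table. Of 27655 genes in the table, 44 held 3 reads or fewer in every K4A library while averaging at least 5 TPM in sdg2. This rule fixed their direction. Of the 44, 42 were above 3 reads in every HTR5 library and 43 in every Col library. The highest in sdg2 was AT3G26110, annotated as anther-specific, at 51 ± 6.22 TPM, which made it at least 112-fold lower in K4A. BCP1, annotated as a homologue of a Brassica pollen protein, followed at 43.7 ± 5.14 TPM in sdg2 and at least 99.2-fold lower in K4A. The others named by rule were a defensin-like gene (AT5G60615, 34.4 ± 2.81 TPM in sdg2), a calcium-binding EF hand gene (AT4G03290, 18.7 ± 2.81 TPM), RALF19 and AT3G28810 (16.2 ± 2.29 TPM), a member of the DUF1216 family. The 12 largest falls of all, besides PGA4, AT3G01270, VGD1, VGDH1, HTR8 and AT3G26110, were sks13, of the SKU5 family of multicopper oxidase-like proteins, at 2.9 ± 1.26 TPM in K4A and 187 ± 11.2 TPM in sdg2, 2 inhibitors of invertase or pectin methylesterase by annotation (AT4G02250 by -5.5 ± 0.13 and AT5G50030 by -5.48 ± 0.14), AT3G01240, annotated as similar to a splicing regulatory protein, by -5.33 ± 0.11, and 2 pectin lyase-like genes (AT3G07820 by -5.23 ± 0.10 and AT5G48140 by -5.17 ± 0.12). Among these falls AT3G26110, AT5G50030, AT3G01240 and AT5G48140 were under 1 TPM in every K4A library, so their direction was fixed.

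By the same rule 5 genes went the other way, at the floor in sdg2 and at a mean of 5 TPM or more in K4A. Their direction was fixed as well. The highest was ddf2, a DREB-type transcription factor gene, at 8.02 ± 1.29 TPM in K4A and at least 26.2-fold higher there. AT1G75600, a histone superfamily gene by annotation, stood at 7.5 ± 1.79 TPM. ABCF2, an ABC protein gene, stood at 6.91 ± 0.479 TPM, the F-box gene AT3G23970 at 6.34 ± 0.977 TPM and AT4G13575 at 5.09 ± 0.525 TPM. AT4G13575 was high in both context groups, at 38.8 ± 10.8 TPM in the HTR5 group and 23 ± 3.16 TPM in Col, with K4A between these and sdg2.

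Markers of other organs were examined beside the pollen genes. Of 13 floral identity genes tested, 2 were called higher in K4A and 6 lower, with a median of -0.18. The share called lower is near the 37.7% of all genes. AP1, of the floral meristem, stood at 12.3 ± 0.365 TPM in K4A and 14 ± 1.17 TPM in sdg2, and SEP3, of the floral organs, at 23.4 ± 1.04 TPM in K4A and 25.5 ± 0.0265 TPM in sdg2, and neither passed the test, with limma adjusted p-values of 0.085 and 0.12. AP3, of petals and stamens, was called lower at -0.19 ± 0.068. Larger differences were those of FUL, a regulator of meristem and fruit, at 16.5 ± 0.388 TPM in K4A and 38.5 ± 1.71 TPM in sdg2, and of SHP1, a fruit gene, at 1.92 ± 0.321 TPM in K4A and 7.51 ± 0.792 TPM in sdg2. LFY was called higher in K4A, by 0.40 ± 0.14. Of 12 seed genes 1 passed the filter, SESA1, with 1.55, 2.4 and 2.74 TPM in K4A libraries, against 0, 0 and 0 TPM in sdg2 libraries. It passed through its K4A level alone, so its direction was fixed. Of 12 root genes 3 passed. Root hair and root tip genes such as RHD6, EXPA7, PLT1 and WOX5 stayed under 0.2 TPM in every K4A and sdg2 library except 1 value of EXPA18 at 0.269 TPM. NRT2.1, a nitrate transporter gene of roots, was higher in K4A, with 7.97, 6.38 and 6.11 TPM in K4A libraries, against 0.469, 0.31 and 0.291 TPM in sdg2 libraries, a difference of 2.52 ± 0.14. NRT2.1 also passed the filter through its K4A level alone. SHR, which patterns root and bundle sheath, was lower, at -0.50 ± 0.067, and SCR did not pass the test, with a limma adjusted p of 0.0602.

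Defence genes that answer salicylic acid were mostly lower in K4A than in sdg2, the pathogenesis-related genes by far, and in summed level both groups stood above the context groups. The summed level of the list was 3073 to 3080.2 TPM in K4A libraries and 9939 to 10336 TPM in sdg2 libraries, beside 541 to 611 TPM in the HTR5 group and 476 to 515 TPM in Col. Without PR1, PR2 and PR5, which carry most of the sum in sdg2, it was 2026 to 2063 TPM in K4A libraries and 3216 to 3276 TPM in sdg2 libraries. Of 27 listed genes of salicylic acid and systemic resistance, all tested, 17 were called lower in K4A and 6 higher, with a median of -0.54, where 37.7% of all genes were lower and 24.8% higher. The counts were 16 lower and 8 higher under ratio scaling, and 17 and 7 under quantile scaling. The secreted pathogenesis-related proteins were among the largest falls of the list. PR1, the usual marker of the pathway, stood at 109.7, 111 and 113 TPM in K4A libraries, against 2760.2, 2818 and 2606 TPM in sdg2 libraries, with 41.6 ± 7.71 TPM in the HTR5 group and 38.7 ± 8.22 TPM in Col. The log2 difference was -4.6 ± 0.048 at a limma adjusted p of 2.33e-14. PR2, a glucanase that cuts fungal cell walls, stood at 777, 757 and 782 TPM in K4A libraries, against 2907, 2886 and 2685 TPM in sdg2 libraries, and PR5, a thaumatin-like protein, at 159, 149 and 156 TPM in K4A libraries, against 1374, 1403 and 1372 TPM in sdg2 libraries. None of the 3 overlapped between the groups, as for 67.1% of all genes. In the HTR5 group and Col the means of PR2 and PR5 were between 39.4 and 86.4 TPM.

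FMO1, ALD1 and DLO1 were lower in K4A by more than 2-fold as well. FMO1, which makes N-hydroxypipecolic acid, the mobile signal of systemic resistance, stood at 19.9, 20.1 and 20.9 TPM in K4A libraries, against 144, 140.2 and 145 TPM in sdg2 libraries, and ALD1, which starts the pathway, at 6.71 ± 0.647 TPM in K4A and 21.3 ± 0.784 TPM in sdg2. FMO1 was under 1 TPM on average in both context groups, at 0.493 ± 0.236 TPM in the HTR5 group and 0.617 ± 0.346 TPM in Col. SARD4, the reductase between them, was called the other way, by 0.21 ± 0.073, although its groups overlapped. DLO1, a salicylic acid hydroxylase, stood at 131, 128 and 112 TPM in K4A libraries, against 749, 844 and 806 TPM in sdg2 libraries, a difference of -2.68 ± 0.064, and its relative DMR6 at 69.8 ± 3.64 TPM in K4A and 131 ± 9.37 TPM in sdg2. Synthesis of salicylic acid itself differed less. ICS1, the isochorismate synthase, differed by -0.53 ± 0.058, and PBS3, which makes the isochorismate conjugate, by -0.19 ± 0.051. EDS5, the exporter of isochorismate from the chloroplast, stood at 34.8 ± 0.857 TPM in K4A and 36.8 ± 1.52 TPM in sdg2 and did not pass the test (limma adjusted p of 0.263).

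Regulators split. Lower in K4A were the activators SARD1, by -0.71 ± 0.05, and CBP60G, by -0.54 ± 0.049, the receptor NPR4, by -0.83 ± 0.06, the inhibitor NIMIN1, by -1.23 ± 0.1, and the factors WRKY54, by -1.5 ± 0.048, WRKY70, by -0.75 ± 0.057, and WRKY53, by -0.55 ± 0.049. Higher in K4A were NPR3, by 0.52 ± 0.065, WRKY18, by 0.51 ± 0.049, UGT76B1, which glucosylates N-hydroxypipecolic acid, by 0.43 ± 0.083, and the immune lipase-like partners SAG101, by 0.49 ± 0.053, and PAD4, by 0.20 ± 0.047. EDS1, their common partner, stood at 126 ± 5.95 TPM in K4A and 135 ± 0.98 TPM in sdg2 and did not pass, with a limma adjusted p of 0.104. Against 26.2 ± 4.65 TPM in the HTR5 group and 22.7 ± 1.02 TPM in Col, EDS1 was thus high in both mutants, whereas PR1 was far higher in sdg2 than in K4A.

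Camalexin, the indole phytoalexin, gave the same direction. Of 9 genes of indolic glucosinolates and camalexin 7 were called lower in K4A and 1 higher, with a median of -0.87, and the counts held under ratio and quantile scaling. PAD3, the last step, stood at 51.4, 59.1 and 60.3 TPM in K4A libraries, against 217, 207 and 202 TPM in sdg2 libraries, and the P450 genes CYP71A12 and CYP71A13 at 44.8 ± 3.24 TPM in K4A and 176 ± 6.97 TPM in sdg2 for the first and 24.3 ± 2.32 TPM in K4A and 80.3 ± 4.11 TPM in sdg2 for the second. Those 2 P450 genes are close copies. CYP82C2, which leads to another indole defence product, was the exception, at 35.5 ± 1.8 TPM in K4A and 12.3 ± 2.17 TPM in sdg2. Aliphatic glucosinolates gave 7 lower and 3 higher of 12, with a median of -0.21, beside 37.7% lower and 24.8% higher of all genes. MAM3, a chain-elongating enzyme, stood at 0.175, 0.379 and 0.363 TPM in K4A libraries, against 8.83, 6.15 and 8.42 TPM in sdg2 libraries, and averaged 23.5 ± 2.71 TPM in the HTR5 group and 26.3 ± 1.75 TPM in Col. K4A was thus far below every other group. MAM3 passed the filter through its sdg2 level alone, so its direction against sdg2 was fixed. The related MAM1 differed by only -0.19 ± 0.049, and the regulators MYB28 and MYB29 went opposite ways, by -0.94 ± 0.068 and 0.81 ± 0.073.

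Jasmonate genes were mostly higher in K4A. Of 16 listed genes 15 were tested, of which 11 were called higher in K4A and 4 lower, with a median of 0.71, beside 24.8% and 37.7% of all genes. Quantile scaling gave the same counts, and ratio scaling gave 11 and 3. The JAZ repressors, which jasmonate both removes and induces, rose together. JAZ7 stood at 60, 63.1 and 61.2 TPM in K4A libraries, against 8.09, 7.85 and 7.37 TPM in sdg2 libraries. JAZ8 stood at 38.7, 42.5 and 44.5 TPM in K4A libraries, against 5.2, 3.84 and 7.66 TPM in sdg2 libraries. Neither gene overlapped between the groups, as for 67.1% of all genes. JAZ7 averaged 3.08 TPM in the HTR5 group and 1.87 TPM in Col. JAZ10 differed by 1.6 ± 0.071, JAZ5 by 1.26 ± 0.058, JAZ1 by 1.04 ± 0.074 and JAZ2 by 0.40 ± 0.061. All 6 listed JAZ genes were called higher in K4A.

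The promoter of JAZ8 is shown for its G box (CACGTG), the element bound by MYC2 and its relatives, marked in capitals in the 250 bases before the start, at chr1:10596102-10596351 (plus strand, TAIR10.1 RefSeq).
JAZ8: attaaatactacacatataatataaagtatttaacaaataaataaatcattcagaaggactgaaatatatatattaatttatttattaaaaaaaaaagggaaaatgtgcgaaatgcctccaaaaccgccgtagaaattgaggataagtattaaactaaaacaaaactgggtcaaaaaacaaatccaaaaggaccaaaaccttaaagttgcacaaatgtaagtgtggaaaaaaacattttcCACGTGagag
The match begins 10 bases before the start. A G box was found in 4 of 15 listed jasmonate promoters, against 7.36% of all 20052, 9.56% of those at least 2-fold higher in K4A and 6.05% of those at least 2-fold lower. It was not particular to jasmonate genes, with matches in 5 of 10 morning clock and 3 of 10 cold response promoters. Other elements were searched too. The W box (TTGACC or TTGACT) was found in 5 of 27 salicylic acid promoters, against 28.2% of all. The as-1 core (TGACG) was also in 5 of these 27, against 19.3% of all. MYC2 itself is listed at 0 in all 12 libraries, so no level can be given.

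The listed synthesis enzymes differed by less than JAZ7 and JAZ8. AOC1, an allene oxide cyclase, stood at 156, 163 and 159.9 TPM in K4A libraries, against 54.9, 57.3 and 56.4 TPM in sdg2 libraries, whereas its close copy AOC2 was lower in K4A, at -0.25 ± 0.053. LOX2, the plastid lipoxygenase, stood at 858 ± 57 TPM in K4A and 508 ± 3.78 TPM in sdg2 and OPR3, which makes the precursor of jasmonic acid, at 147 ± 4.34 TPM in K4A and 89 ± 4.97 TPM in sdg2. AOS differed by 0.39 ± 0.065. The outputs parted: VSP2 was higher in K4A, at 1012 ± 35.5 TPM in K4A and 685 ± 11.9 TPM in sdg2, its close copy VSP1 lower, at 355 ± 20.1 TPM in K4A and 940.0 ± 63.4 TPM in sdg2, and the defensin gene PDF1.2, which answers jasmonate with ethylene, lower, at 10.6 ± 0.792 TPM in K4A and 81 ± 4.38 TPM in sdg2. PDF1.2 differed between the context groups too, at 31 ± 8.24 TPM in the HTR5 group and 335 ± 9.48 TPM in Col. DOX1, an alpha-dioxygenase of fatty acids, differed little, at 277 ± 9.01 TPM in K4A and 300.2 ± 7.13 TPM in sdg2, a difference of -0.11 ± 0.046.

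The gene with the largest rise by the naming rule acts on the same hormone. CYP94B3, which inactivates the active jasmonate by hydroxylation, stood at 93.6, 93.6 and 91.7 TPM in K4A libraries, against 2.76, 3.71 and 3.31 TPM in sdg2 libraries, with means of 0.63 TPM in the HTR5 group and 0.844 TPM in Col. The K4A libraries lay far above all 9 others, and the log2 difference was 4.47 ± 0.085 at a limma adjusted p of 3.93e-12. Next came DDF1, a DREB-type factor and a close relative of ddf2, at 40, 44 and 45.4 TPM in K4A libraries, against 1.54, 1.36 and 0.885 TPM in sdg2 libraries. The wall-loosening xyloglucan enzymes XTH18 and XTR6 stood at 49.1 ± 2.17 TPM in K4A and 2.43 ± 0.339 TPM in sdg2 for XTH18 and 108 ± 4.97 TPM in K4A and 7.49 ± 1.33 TPM in sdg2 for XTR6. RAP2.6, an ERF-type factor of stress responses, stood at 37.5 ± 3.41 TPM in K4A and 2.04 ± 0.75 TPM in sdg2 and PHI-1, annotated as phosphate-responsive, at 47.5 ± 1.23 TPM in K4A and 2.93 ± 0.60 TPM in sdg2. The remaining members of the 12 largest rises were AT2G43960 by 3.54 ± 0.12, the cation transporter gene OCT6 by 3.49 ± 0.14, AT1G15010 by 3.37 ± 0.12, the tetraspanin gene TET9 by 3.22 ± 0.094, the defensin-like AT1G13609 by 3.26 ± 0.11 and AT5G23115 by 3.46 ± 0.24. AT2G43960 was under 1 TPM in every sdg2 library and passed the filter through its K4A level, so its direction was fixed. AT5G23115 has an annotated span of 29 bases, so its TPM rests on few reads, at most 119 per K4A library and 19 per sdg2 library. AT1G13609 was higher again in the context groups, at 34 ± 7.84 TPM in the HTR5 group and 88.9 ± 4.0 TPM in Col, so that it was lowest in sdg2.

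The circadian clock split by phase. Of 10 morning genes 8 were called higher in K4A and 1 lower, with a median of 1.35, and all 9 evening genes were called lower, with a median of -1.05, where 24.8% of all genes were higher and 37.7% lower. Under ratio scaling 8 morning genes were again higher and 7 evening genes lower. LHY and CCA1 are the dawn repressors at the core of the clock. LHY stood at 50.8, 51.9 and 47.2 TPM in K4A libraries, against 4.93, 3.87 and 5.12 TPM in sdg2 libraries, and CCA1 at 91.4, 94 and 91.4 TPM in K4A libraries, against 14, 14.1 and 14.3 TPM in sdg2 libraries. The groups were far apart, and K4A was nearer to the context groups, where LHY averaged 66 ± 10.3 TPM in the HTR5 group and 63.6 ± 2.19 TPM in Col. RVE1, RVE8 and RVE4, their relatives, differed by 2.73 ± 0.092, 1.74 ± 0.068 and 1.06 ± 0.058. LNK2, a coactivator, stood at 243 ± 2.71 TPM in K4A and 77.9 ± 2.41 TPM in sdg2 and LNK1 at 101 ± 3.41 TPM in K4A and 75.6 ± 4.58 TPM in sdg2. Of the pseudo-response regulators of the day, PRR9 was higher in K4A, by 0.75 ± 0.071, and PRR7, which peaks after it, was lower, at -0.40 ± 0.047. CDF1, a flowering repressor removed through FKF1, did not pass the test, at 14.8 ± 0.266 TPM in K4A and 14.4 ± 0.444 TPM in sdg2, with a limma adjusted p of 0.698.

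Evening genes are repressed by LHY and CCA1 through the evening element, spelled AAAATATCT and searched on both strands. It is marked in capitals in 2 promoters of 250 bases, for FKF1 at chr1:25508389-25508638 (plus strand) and PRR5 at chr5:8358547-8358796 (minus strand), read 5′ to 3′ from the TAIR10.1 RefSeq genome.
FKF1: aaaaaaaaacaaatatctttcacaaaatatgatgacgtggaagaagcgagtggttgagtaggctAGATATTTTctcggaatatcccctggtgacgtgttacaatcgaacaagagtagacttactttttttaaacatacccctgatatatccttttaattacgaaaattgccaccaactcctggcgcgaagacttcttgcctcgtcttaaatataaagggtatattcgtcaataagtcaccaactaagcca
PRR5: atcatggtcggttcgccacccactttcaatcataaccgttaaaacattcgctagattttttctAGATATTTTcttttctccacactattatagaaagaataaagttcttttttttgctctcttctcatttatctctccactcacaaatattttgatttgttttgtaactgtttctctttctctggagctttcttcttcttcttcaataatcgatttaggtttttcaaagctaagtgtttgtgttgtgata
The matches begin 186 and 187 bases before the start. The element was found in 5 of 9 evening promoters and 0 of 10 morning promoters, and in 2.54% of all 20052. Among genes at least 2-fold apart it was found in 3.12% of those higher in K4A and 3.38% of those lower.

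FKF1, a blue-light receptor of the flowering pathway, stood at 33.4, 27.4 and 27.8 TPM in K4A libraries, against 81.5, 87.3 and 83.6 TPM in sdg2 libraries, and at under 1 TPM on average in the HTR5 group and Col. PRR5 stood at 56.3, 51.6 and 52 TPM in K4A libraries, against 123, 127 and 129 TPM in sdg2 libraries and GI, a partner of FKF1, at 39.1, 36.7 and 36.2 TPM in K4A libraries, against 93, 83.2 and 90.5 TPM in sdg2 libraries. For these 3 genes sdg2 was highest, K4A lay between, and the context groups were lowest. PRR3 differed by -1.55 ± 0.068, LUX and ELF3, of the evening complex, by -1.05 ± 0.072 and -1.03 ± 0.073, and TOC1 by -0.48 ± 0.051. ELF4, the other member of the complex, was close, at 79.5 ± 6.03 TPM in K4A and 89.5 ± 4.13 TPM in sdg2, with overlapping libraries, and BOA, a relative of LUX, differed by -0.30 ± 0.10. ELF4 and BOA were the 2 not called under ratio scaling. The labels give no hour of harvest, and any difference in it between the groups cannot be told apart from the genotype.

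**Figure D3:**
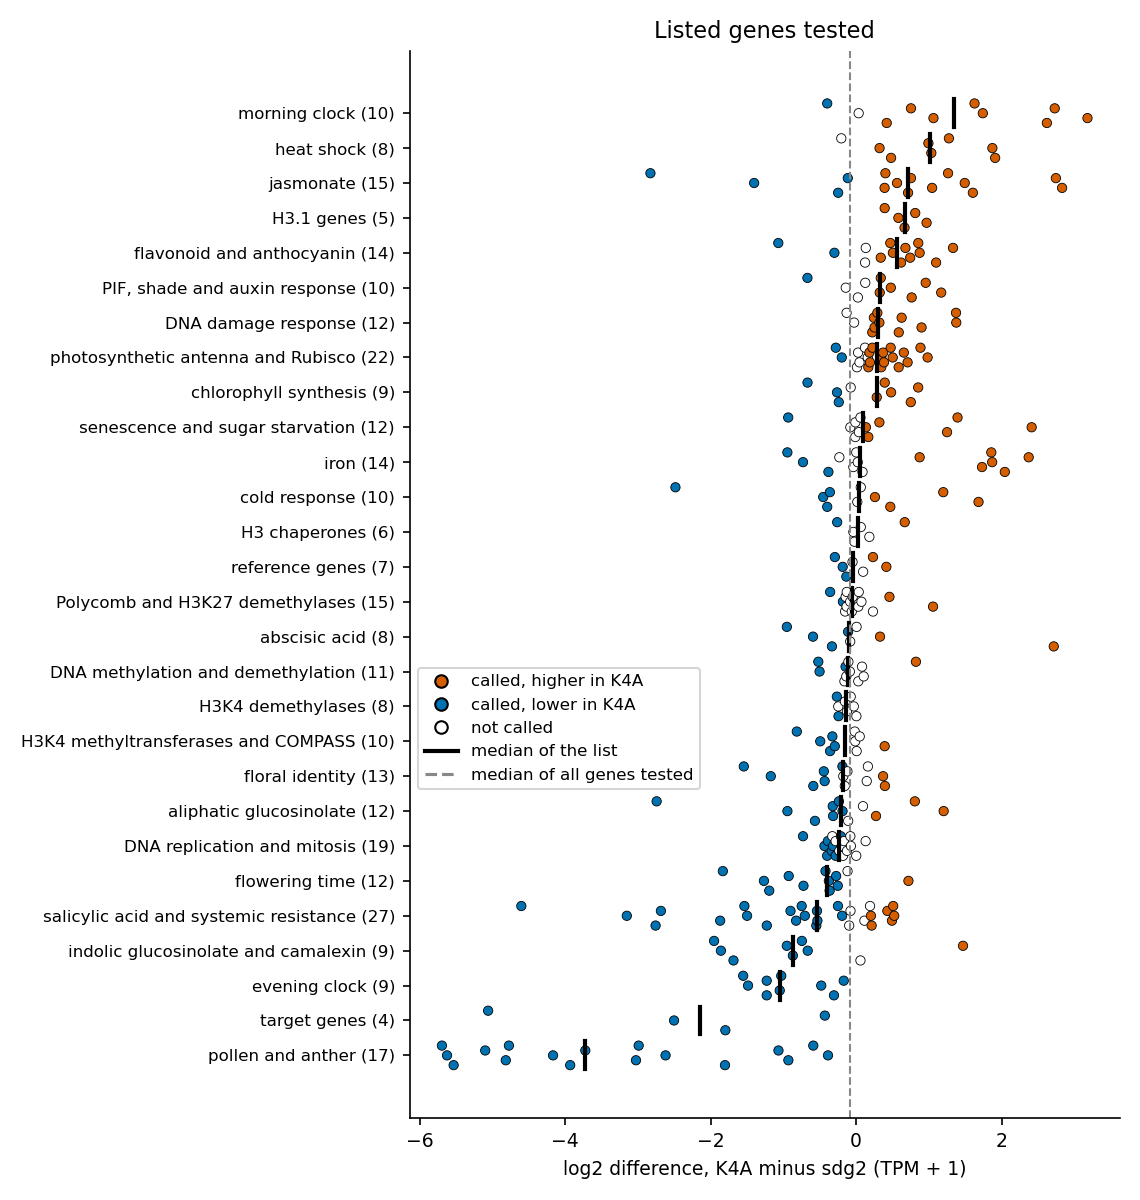
Log2 difference, K4A minus sdg2, of the tested genes of 28 lists (seed and root genes are not drawn), ordered by median from highest to lowest; the number tested stands in parentheses, black bars are list medians and the dashed line is the median of all genes tested, -0.08. Morning clock genes have the highest median, 1.35, and pollen and anther genes the lowest, -3.72.

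Genes of the photosynthetic apparatus were mostly higher in K4A, by less than 2-fold. Of 22 antenna and Rubisco genes 15 were called higher and 2 lower, with a median of 0.28, beside 24.8% and 37.7% of all genes. The counts were 15 and 0 under ratio scaling and 11 and 2 under quantile scaling, with medians of 0.37 and 0.14. The antenna genes LHCB1.2 and LHCB2.1 differed most, at 2856 ± 51 TPM in K4A and 1446 ± 78.5 TPM in sdg2 for LHCB1.2 and 2199.8 ± 41.1 TPM in K4A and 1193 ± 90.4 TPM in sdg2 for LHCB2.1. The lower ones were LHCB4.1, by -0.20 ± 0.069, and the Rubisco gene RBCS2B, by -0.28 ± 0.074. LHCB and RBCS genes occur in close copies, and reads may have been split among them. RCA, the activase that keeps Rubisco working and not a member of the list, stood at 4091, 3748 and 3865 TPM in K4A libraries, against 1898, 2014 and 1802 TPM in sdg2 libraries, a log2 difference of 1.03 ± 0.065 at a limma adjusted p of 4.06e-08, and at 7399 ± 493 TPM in the HTR5 group and 8103 ± 75.2 TPM in Col. Both K4A and sdg2 were thus under the context groups, sdg2 further.

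Of the 10 called genes with the highest levels, all but CAT3 and UBQ10 belong to photosynthesis. LHB1B2, an antenna gene, stood at 8059 ± 638 TPM in K4A and 6305 ± 186 TPM in sdg2 and RBCS1A at 7105 ± 536 TPM in K4A and 5024 ± 573 TPM in sdg2, higher in K4A at 0.35 ± 0.08 and 0.50 ± 0.092, although under quantile scaling LHB1B2 was lower, at -0.088, and RBCS1A was not called. The antenna genes LHCA1, LHCA3 and LHCA4 were higher by 0.35 ± 0.064, 0.35 ± 0.064 and 0.37 ± 0.059. PSBO1, of the water-splitting complex, was higher by 0.19 ± 0.062. Outside photosynthesis, the catalase gene CAT3 was lower in K4A, at 3154 ± 31.1 TPM in K4A and 3910.1 ± 9.5 TPM in sdg2, and the polyubiquitin gene UBQ10 higher, by 0.23 ± 0.069. Chlorophyll synthesis gave 5 higher and 3 lower of 9 tested, beside 24.8% higher and 37.7% lower of all genes. HEMA1, its first committed enzyme, stood at 310.0 ± 5.96 TPM in K4A and 184 ± 4.45 TPM in sdg2, whereas PORB, a light-dependent reductase, was lower in K4A, at 482 ± 30.9 TPM in K4A and 765 ± 11.6 TPM in sdg2.

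ASN1, DIN10 and SEN1, genes induced by darkness and sugar shortage, were higher in K4A. Of 12 senescence and sugar starvation genes 6 were called higher and 1 lower, with a median of 0.10, beside 24.8% and 37.7% of all genes. ASN1, an asparagine synthetase, stood at 115, 107 and 105 TPM in K4A libraries, against 19.7, 18.1 and 21.2 TPM in sdg2 libraries. DIN10 stood at 161 ± 5.03 TPM in K4A and 60.5 ± 2.79 TPM in sdg2 and SEN1 at 38.3 ± 1.81 TPM in K4A and 15.5 ± 0.341 TPM in sdg2. For ASN1 and DIN10, K4A was above the context groups, which averaged 35.8 and 45.8 TPM in the HTR5 group and 26.4 and 33.5 TPM in Col. SAG12, a protease of late senescence, was the 1 called lower, at 119 ± 3.54 TPM in K4A and 228 ± 10 TPM in sdg2. The chlorophyll breakdown genes NYE1, NYC1, PPH and PAO did not pass the test, with differences between -0.01 and 0.06.

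Flavonoid genes were mostly higher in K4A. Of 14 tested 10 were called higher and 2 lower, with a median of 0.56, beside 24.8% and 37.7% of all genes, and the counts were 10 and 1 under ratio scaling and under quantile scaling. CHS, the first enzyme of the pathway, stood at 565, 494 and 477 TPM in K4A libraries, against 261, 303 and 272 TPM in sdg2 libraries. F3H differed by 0.62 ± 0.046, DFR by 0.68 ± 0.091 and LDOX, which makes anthocyanidins, by 1.33 ± 0.097. TT19, which carries anthocyanins to the vacuole, differed by 1.1 ± 0.10. The activators went opposite ways, MYB75 at 13 ± 1.42 TPM in K4A and 6.79 ± 0.985 TPM in sdg2 and MYB90 at 2.13 ± 0.187 TPM in K4A and 5.59 ± 0.799 TPM in sdg2. For LDOX and TT19 both mutants were below Col, with Col means of 59.1 and 52.3 TPM.

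Genes that write and remove H3K4 methylation differed little. Of 10 tested writers and COMPASS subunits, SDG2 not among them, 5 were called lower in K4A and 1 higher, with a median of -0.16, none at 2-fold, beside 37.7% lower and 24.8% higher of all genes. Of the subunits, RBL, the RbBP5-like subunit, differed most, at 21, 20.1 and 20.2 TPM in K4A libraries, against 38.4, 36.1 and 35.8 TPM in sdg2 libraries, with 16.5 ± 2.49 TPM in the HTR5 group and 14.3 ± 0.903 TPM in Col. ATXR7 differed by -0.49 ± 0.09 and ATX2 by -0.33 ± 0.083, and ATX4, a writer of the dimethyl and trimethyl forms, was the 1 higher in K4A, by 0.39 ± 0.09. ATX1, ATX3, ATX5 and S2LB did not pass, with limma adjusted p-values of 0.702, 0.947, 0.878 and 0.859. Of 8 tested demethylases 2 were called lower, JMJ17 by -0.27 ± 0.091 and LDL3 by -0.24 ± 0.091. Under ratio scaling the writers gave 4 lower and 1 higher, and 0 demethylases were called, although the voom fit called 2 lower.

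Other chromatin genes gave few large differences, and in the 3 lists below the shares called were under the 24.8% of all genes called higher and the 37.7% called lower. RING1B, a ubiquitin ligase of Polycomb complex 1, stood apart, at 27.2, 25.5 and 25.2 TPM in K4A libraries, against 13.1, 10.7 and 12.2 TPM in sdg2 libraries, with 5.05 ± 0.698 TPM in the HTR5 group and 4.85 ± 0.864 TPM in Col, and was higher in K4A by 1.06 ± 0.083. Of 15 Polycomb and H3K27 demethylase genes 2 were called higher and 2 lower. LHP1, which binds methylated H3K27, was lower, at -0.36 ± 0.064. Of 11 DNA methylation genes 1 was called higher and 3 lower. The DNA demethylase DME was lower, at -0.52 ± 0.089, and IBM1, a demethylase of H3K9 that protects genes from DNA methylation, by -0.50 ± 0.075. DML3, another DNA demethylase, was higher in K4A by 0.82 ± 0.16, at a low level. Of 6 H3 chaperones ASF1B was called higher, by 0.67 ± 0.12, and FAS1 lower, at -0.26 ± 0.092.

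All 5 listed H3.1 genes were called higher in K4A, beside 24.8% of all genes, with a median of 0.67, and under the 3 other scalings as well. HTR2 stood at 193, 213 and 243 TPM in K4A libraries, against 155, 124 and 129 TPM in sdg2 libraries and HTR13 at 57, 53.6 and 66.5 TPM in K4A libraries, against 36.3, 31.6 and 31.5 TPM in sdg2 libraries. HTR9, HTR1 and HTR3 differed by 0.58 ± 0.059, 0.39 ± 0.075 and 0.97 ± 0.22. H3.1 genes code for the same protein and are close copies, so reads may be split among them. The mean of each of the 5 genes was lowest in sdg2. In the context groups HTR2 averaged 229.8 ± 52.2 TPM in the HTR5 group and 172 ± 9.38 TPM in Col, with K4A between them. HTR3 stood at 4.06 ± 0.909 TPM in K4A and 1.67 ± 1.02 TPM in sdg2, and at 10.9 ± 3.54 TPM in the HTR5 group and 3.72 ± 0.449 TPM in Col, so that the HTR5 group was well above K4A. H3.1 is made in S phase, so replication and mitosis genes are set beside it: of 19 tested, 8 were called lower in K4A and 0 higher, with a median of -0.23, and the share lower is near the 37.7% of all genes. CDKB1;1, a mitotic kinase, differed most, at 5.34 ± 0.472 TPM in K4A and 9.52 ± 0.759 TPM in sdg2. The replication factors MCM2 and MCM4 were lower, at -0.28 ± 0.075 and -0.21 ± 0.083, and MCM6 did not pass, with a limma adjusted p of 0.99.

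DNA damage genes were mostly higher in K4A. Of 12 tested 10 were called higher and 0 lower, with a median of 0.31, beside 24.8% and 37.7% of all genes, and the same counts under ratio and quantile scaling. PARP2, a poly(ADP-ribose) polymerase of strand breaks, stood at 12.7, 10.9 and 13.3 TPM in K4A libraries, against 4.5, 4.0 and 3.86 TPM in sdg2 libraries, and the damage-response factor NAC044 at 5.27, 4.55 and 4.41 TPM in K4A libraries, against 1.22, 1.41 and 1.0 TPM in sdg2 libraries. PARP2 averaged 3.79 ± 1.13 TPM in the HTR5 group and 2.49 ± 0.28 TPM in Col, so that K4A stood above all other groups. BRCA1 differed by 0.59 ± 0.12 and SMR7, an inhibitor of the cell cycle, by 0.90 ± 0.19. SOG1, the master regulator of this response, stood at 19.8 ± 0.384 TPM in K4A and 21.8 ± 1.03 TPM in sdg2 and did not pass, with a limma adjusted p of 0.11.

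Flowering repressors of the FLC family were lower in K4A. Of 15 flowering-time genes 12 were tested, 10 called lower in K4A and 1 higher, with a median of -0.40, where 37.7% of all genes were lower and 24.8% higher. FLC itself was low in both, at 0.306, 0.278 and 0.336 TPM in K4A libraries, against 0.889, 1.17 and 1.07 TPM in sdg2 libraries, and did not pass the filter. FLM stood at 8.68, 8.94 and 9.64 TPM in K4A libraries, against 25.1, 20.5 and 24.5 TPM in sdg2 libraries, and MAF2, MAF3, MAF4 and MAF5 differed by -0.36 ± 0.088, -0.37 ± 0.089, -0.42 ± 0.14 and -0.93 ± 0.12. AGL24, an activator of flowering, stood at 5.67, 4.01 and 4.06 TPM in K4A libraries, against 17.9, 20.7 and 17.62 TPM in sdg2 libraries, and SPL3, an activator of the ageing pathway, at 44.2 ± 4.46 TPM in K4A and 73.5 ± 4.89 TPM in sdg2. The florigen genes split: FT, the mobile signal of long days, stood at 3.2, 3.69 and 4.19 TPM in K4A libraries, against 1.86, 1.63 and 2.04 TPM in sdg2 libraries, higher in K4A, and its relative TSF at 0.536, 0.833 and 0.557 TPM in K4A libraries, against 3.19, 2.23 and 2.89 TPM in sdg2 libraries, lower in K4A. No library overlapped for either, as for 67.1% of all genes. FT averaged 6.29 TPM in the HTR5 group and 7.79 TPM in Col, above both K4A and sdg2. TSF, under 1 TPM in every K4A library, passed the filter through its sdg2 level, so its direction was fixed. CO, the activator of FT, stood at 0.27 ± 0.178 TPM in K4A and 0.485 ± 0.223 TPM in sdg2 and did not pass the filter.

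Of the genes at least 2-fold apart, the place relative to the 6 libraries of the HTR5 group and Col was then described. Of the 1028 higher in K4A, 801 (77.9%) had all 3 K4A libraries above all 6 and 94 (9.14%) had them below. All 3 sdg2 libraries were below all 6 for 344 (33.5%) of the 1028 and above for 294 (28.6%). Of the 1128 lower in K4A, 715 (63.4%) had K4A below all 6 and 203 (18.0%) had it above. The sdg2 libraries were above all 6 for 696 (61.7%) of the 1128 and below for 107 (9.49%). Over all 20152 genes K4A was above all 6 for 41.8% and below for 21.4%, and sdg2 above for 45.6% and below for 18.18%. The mutant and context libraries also differ in depth and chloroplast share, as given above, and the part of these in the placement was not tested. PGA4 and VGD1 had K4A below and sdg2 above all 6.

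Genes far apart were short. The median span was 1883 bases for genes at least 2-fold higher in K4A and 1850.5 for those at least 2-fold lower, against 2376 over all tested genes. Among the 4011 genes of shortest span, 29 to 1551 bases, 18.9% were at least 2-fold apart, against 5.58% among the 4011 of longest span, 3595 to 27265 bases. The median TPM was 12.3 among the shortest and 22.0 among the longest. The median log2 difference was -0.04 among the shortest and -0.17 among the longest, and these medians were 0.04 and -0.09 under ratio scaling. The 5 chromosomes were alike, with 62.2 to 63.2% of genes called on each.

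**Figure D4:**
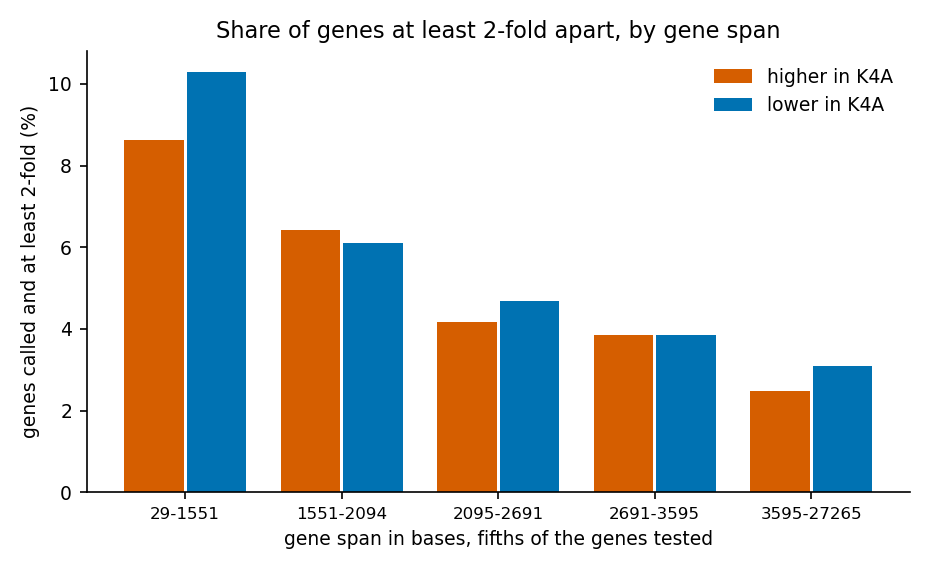
Share of genes called and at least 2-fold higher or lower in K4A, in percent, in 5 groups of near equal size by gene span in bases. Both shares fall with span, from 8.63% higher and 10.3% lower among the shortest to 2.49% and 3.09% in the longest.

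Some genes far apart lay side by side. Among the tested genes in their order along the chromosome, 10 runs of at least 4 neighbours were all called in 1 direction and at least 2-fold, 5 higher and 5 lower in K4A, with 48 genes in all. Of all tested genes, 5.1% were called at least 2-fold higher and 5.6% lower. Under 1 TPM in every library of the lower group were WAKL1, WAKL4, AT3G01230, AT3G01240, AT3G01250, AT3G28780, AT3G28810, AT3G28820, AT4G15710, AT5G39160, AT5G39180, AT5G46940 and AT5G47000. They passed the filter through the other group, so their direction was fixed, yet they count towards the runs. At AT4G15660 to AT4G15710 (chromosome 4, 8925571 to 8941406) 6 neighbours, mostly annotated as thioredoxin superfamily proteins, were higher in K4A by 1.35 to 2.63 on the log2 scale. AT4G15680 in that run stood at 15.6, 14.8 and 18.4 TPM in K4A libraries, against 2.6, 0.678 and 2.55 TPM in sdg2 libraries, and averaged 0.386 ± 0.291 TPM in the HTR5 group and 0.823 ± 0.467 TPM in Col. On chromosome 3 (5579290 to 5599224) 5 neighbours from PBP1 to JR1, of the jacalin-related lectins that gather in defence bodies, were higher by 1.17 to 1.99, and PBP1 stood at 101 ± 2.78 TPM in K4A and 35.2 ± 2.21 TPM in sdg2. RVE1 was the first of 4 neighbours higher in K4A that included UGP2, for an enzyme of UDP-glucose, and GAD, for a glutamate decarboxylase. WAKL1, WAKL2 and WAKL4, genes of wall-associated kinases, lay in another such run with WAKL4 at 4.23 ± 0.346 TPM in K4A and 0.0704 ± 0.0629 TPM in sdg2. The last of these runs held TZP, a nuclear protein of light signalling, at 36.5 ± 2.18 TPM in K4A and 11.9 ± 0.493 TPM in sdg2.

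On the lower side, 6 genes of the DUF1216 family at AT3G28780 to AT3G28840 (chromosome 3, 10805857 to 10840059) were lower in K4A, with differences between -4.76 and -1.55. AT3G28830 among them stood at 2.35, 2.23 and 1.35 TPM in K4A libraries, against 79.2, 78.9 and 78.2 TPM in sdg2 libraries, and averaged 64.5 TPM in the HTR5 group and 79.7 TPM in Col. AT3G01230 to AT3G01270, with the pectate lyase gene above, formed a run of 4. From CRK37 to APR1 (chromosome 4, 2238370 to 2327064) 4 cysteine-rich receptor kinases and the APS reductase gene APR1, of sulfate assimilation, were lower, with CRK37 at 22.1, 22.2 and 21.7 TPM in K4A libraries, against 114, 111 and 117 TPM in sdg2 libraries. CRK37 was near 1 TPM in the context groups, at 1.23 ± 0.322 TPM in the HTR5 group and 1.25 ± 0.454 TPM in Col. Germin-like genes from AT5G39110 to GER2 gave 6 neighbours lower in K4A, with AT5G39120 at 1.39 ± 0.643 TPM in K4A and 22.6 ± 2.07 TPM in sdg2. The last run, AT5G46940 to AT5G47000, held 3 inhibitors of invertase or pectin methylesterase and a peroxidase. Members of these families are close copies of each other, and the counting may have split reads among them, so that they are not independent cases.

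**Figure D5:**
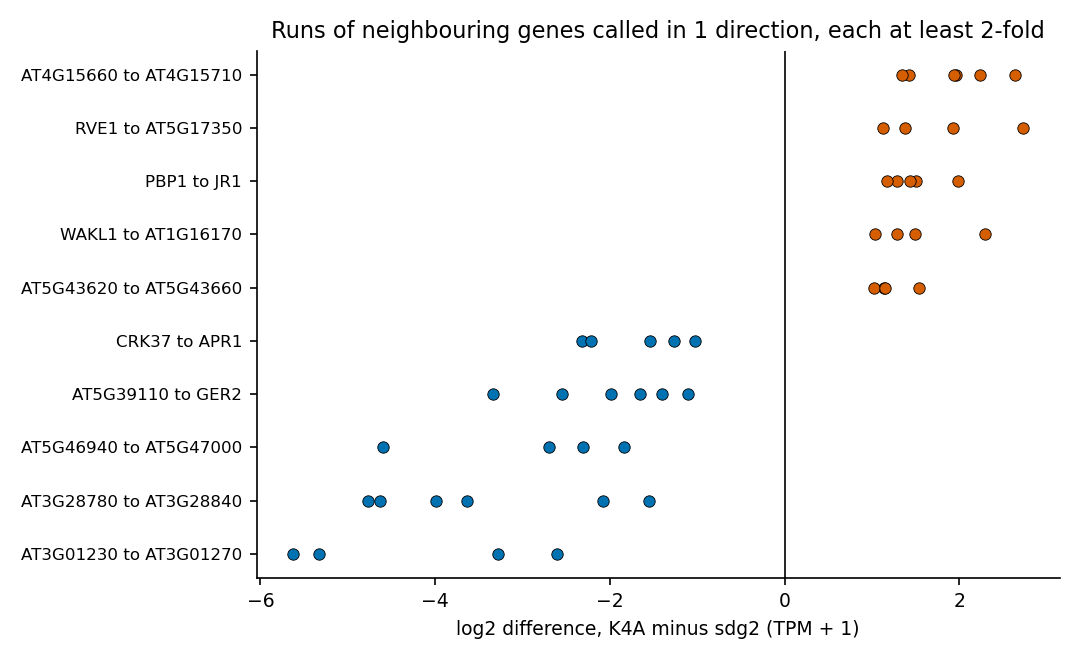
Log2 difference, K4A minus sdg2, of each gene in the 10 runs of at least 4 neighbouring genes that were all called in 1 direction and at least 2-fold; each row is a run, named by its first and last gene, and each point a gene. The 5 runs higher in K4A lie between 1.02 and 2.73, and those lower reach -5.62 in AT3G01230 to AT3G01270.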

How the data were processed

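RNA-seq of 12 libraries was deposited as a single table of TPM per gene, made by the authors. The submitters' processing notes name fastp 0.20.1, HISAT2, DESeq2 1.26.0 and the TAIR10 genome. The counting tool and its use of strand are not given in the sources used here. For 99.98% of 25487 genes the TPM values were whole reads within 0.01 once multiplied by the gene span in the RefSeq annotation, so TPM here is per base of span, introns included, and depth was taken from these recovered reads. Genes that reached 1 TPM in 3 or more of the 6 libraries were tested on log2(TPM + 1), without a covariate, with limma 3.58.1 in R 4.3.3 (eBayes with trend). P-values were adjusted by Benjamini-Hochberg over all 20152 genes. The script was tested on simulated data. The members and lists (30 lists, 368 genes, 332 tested, 244 called) were chosen with earlier results of these data known. Genes of the deposited table were matched to RefSeq by locus, for 27433 of 27655. Of the 368 listed symbols 336 were found in RefSeq for their locus. Genes named outside the lists were the 12 largest rises and 12 largest falls among called genes without overlap and with a mean of at least 5 TPM in the higher group. Added to these were the 10 called genes with the highest levels, the first 6 genes by level at 3 reads or fewer in every library of a mutant, and the 3 nearest genes on each side of SDG2 and HTR5. The genes named in runs of neighbours were chosen after their values were seen. Promoters are the 250 bases before a gene's start in RefSeq. Depth limits the lowest values: 3 reads in a gene of 2000 bases equal 0.124 to 0.178 TPM in these 6 libraries, and such floors cover counting error only. Chi-square per degree of freedom between replicates was 2.50 to 6.09, so no 2 replicates agreed within sampling noise. Other pseudocounts, filters, scalings, variance models, a minimum change, voom and each library left out were tried as alternatives.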

Additional observations from a re-analysis of the deposited data

How the results depend on the processing

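Of 12594 genes called between K4A and sdg2, 10017 passed at an adjusted p under 0.01 and 5983 passed limma's treat test against a minimum change of 1.2-fold. Genes called and at least 2-fold apart, 2156 as reported, numbered 1380 where a mean of 5 TPM was required, which tests fewer genes, 2807 with a pseudocount of 0.1 and 2885 with limma-voom on recovered reads. The share of called genes higher in K4A, 39.6% as reported, was 50.5% with median-of-ratios scaling, 48.3% with quantile normalization, and 50.3% in a limma-voom fit. It was 45.1% with treat, 40.7% with all 12 libraries in the fit, 38.3% with a mean of 5 TPM and 38.8% with array quality weights, and the cause was not tested. Of the called genes 87.3% kept their direction and call after median-of-ratios scaling, 89.4% did so after quantile normalization, and 82.6% did so with all 12 libraries in the fit. Leaving out each library in turn gave 11268 to 12493 calls, 2158 to 2201 genes at least 2-fold apart and a share higher of 37.9 to 41.2%. With the replicate block the counts were 12022 calls, 2157 at least 2-fold apart and a share of 39.9%. Deviations of the same-numbered libraries correlated at -0.12, -0.02 and -0.06, and those of differently numbered libraries at -0.06 to 0.12. The check thus showed no pairing by number. It cannot exclude pairing, since the deviations of 3 libraries from their mean are tied to each other. For 230 tested genes named here, 4336 values were computed over 19 alternatives. The direction and the call were as reported in 4134 of them, the call was lost in 185, gained in 16, and the direction turned in 1, that of LHB1B2, which was -0.088 under quantile normalization. Calls lost in several alternatives were those of differences under 1.5-fold, among them MCM4, LDL3, JMJ17, FAS1, DOX1, BAM5, AP3, ELF4, BOA and LHCB4.1. Of 569 counts of called genes per list 520 stayed within 1.5 times the reported count. Depth limits genes near 0: 3 reads in a gene of 2000 bases equal 0.124 to 0.178 TPM in the K4A and sdg2 libraries.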

Other observations

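Genes of other processes were listed too and are given here as values, with the same calls (limma adjusted p under 0.05) and the same background of 24.8% of genes higher in K4A and 37.7% lower. Of 14 iron genes 6 were called higher in K4A and 3 lower, with a median log2 difference of 0.05. The 6 higher were the shoot iron-deficiency factors bHLH38, bHLH39, bHLH100 and bHLH101 and the small peptides IMA1 and IMA2 that act above them. For bHLH38 the level was 3.96, 5.5 and 5.24 TPM in K4A libraries, against 0.137, 0 and 0.276 TPM in sdg2 libraries, and bHLH100 stood at 7.15, 7.71 and 6.63 TPM in K4A libraries, against 0.761, 1.26 and 0.944 TPM in sdg2 libraries. The groups did not overlap in either, as for 67.1% of all genes. K4A was near the HTR5 group, where bHLH38 averaged 5.7 ± 1.34 TPM, and below Col, at 10.7 ± 1.52 TPM. With sdg2 means under 1 TPM, bHLH38, IMA1 and IMA2 passed the filter through their K4A level, so their direction was fixed. IMA1 stood at 3.33 ± 1.37 TPM in K4A and 0.277 ± 0.257 TPM in sdg2, and IMA2 at 4.28 ± 1.49 TPM in K4A and 0.425 ± 0.247 TPM in sdg2. FIT, the root partner of these factors, was lower in K4A, at 2.65 ± 0.328 TPM in K4A and 6.15 ± 1.67 TPM in sdg2, and the iron stores FER3 and FER4 were lower at -0.73 ± 0.057 and -0.38 ± 0.058. The uptake genes IRT1 and FRO2 did not pass, with limma adjusted p-values of 0.207 and 0.858.

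Of 10 heat shock genes 8 were tested, of which 7 were called higher in K4A and 0 lower, with a median of 1.01. HSFA2, the factor that prolongs the response, stood at 15, 14.1 and 15.3 TPM in K4A libraries, against 6.35, 7.56 and 6.94 TPM in sdg2 libraries, and the small heat shock protein gene HSP17.6A at 12.1, 14.9 and 11.8 TPM in K4A libraries, against 2.63, 3.1 and 2.66 TPM in sdg2 libraries. Both were above the context groups, where HSFA2 averaged 1.9 TPM in the HTR5 group and 2.06 TPM in Col. Cold genes gave 4 higher and 4 lower of 10. COR15B, a chloroplast protectant, was lower in K4A, at 12.7, 13 and 12.3 TPM in K4A libraries, against 79.9, 75 and 71.5 TPM in sdg2 libraries, while its close copy COR15A differed by 0.06 ± 0.057 and did not pass. CBF2 was higher at 1.2 ± 0.14, and CBF1 and CBF3 lower at -0.40 ± 0.10 and -0.36 ± 0.13, and these 3 are close copies. Abscisic acid genes gave 2 higher and 4 lower of 8 tested, with RD29B at 12.7, 11.9 and 11.3 TPM in K4A libraries, against 0.991, 1.14 and 0.80 TPM in sdg2 libraries and the phosphatase gene HAI1 at 24.8 ± 1.39 TPM in K4A and 48.9 ± 0.778 TPM in sdg2. Of 10 tested genes of light, shade and auxin response 6 were called higher and 1 lower. PIF5, a growth-promoting light-signalling factor, stood at 174, 172 and 153 TPM in K4A libraries, against 70, 72.1 and 78 TPM in sdg2 libraries. Of 7 genes used as references in other work 2 were called higher and 3 lower, with differences from -0.29 for UBC21 to 0.42 for ACT2.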
